A study of Saccharomyces cerevisiae with 6 samples.

Results

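ADH2, ACS1, CIT2, YAT1 and YAT2 are 5 budding yeast genes that carry ethanol carbon to acetyl-CoA and move its acetyl group between compartments. They were taken by gene symbol from the 979 yeast genes on the array, and all 5 were found, each as 1 probe printed in 2 spots. The set was selected on the difference of ADH2 between the groups described here, which was already known to pass the significance threshold, and on the roles of the other 4 genes. The differences of the 5 genes between the groups are therefore descriptions, given with no p-value.

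RNA came from a wild type strain of Saccharomyces cerevisiae (3 arrays) and from that same wild type strain overexpressing ACC1 (3 arrays). ACC1 encodes acetyl-CoA carboxylase, which turns acetyl-CoA into malonyl-CoA for fatty acid synthesis. Total RNA was amplified, labelled with biotin and hybridized in a single colour. The culture medium, the growth phase, the overexpression construct and whether replicates were separate cultures are not stated in the sources read, so the spread between arrays may be technical.

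Ethanol made by fermentation is taken up again when glucose runs out. Alcohol dehydrogenase II (Adh2) oxidizes it to acetaldehyde, which is oxidized on to acetate, and acetyl-CoA synthetase (Acs1) joins acetate to coenzyme A. Acetyl-CoA does not cross the membranes of peroxisomes and mitochondria. Its acetyl group moves either as products of the glyoxylate cycle, which the peroxisomal citrate synthase Cit2 feeds, or as acetylcarnitine, made by the carnitine acetyltransferases Cat2, Yat1 and Yat2. In glucose, transcription of ADH2 and ACS1 is repressed, and its release depends on the kinase Snf1 and the activators Adr1 and Cat8. CIT2 is best known as the target of the retrograde response, through which Rtg proteins report mitochondrial dysfunction to the nucleus.

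The probes that read the 5 genes are shown because every value below rests on a single sequence per gene. They are written as the files list them, and the capitals mark the longest run that the probe shares with any other probe on the array.
ADH2: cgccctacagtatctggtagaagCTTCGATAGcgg
ACS1: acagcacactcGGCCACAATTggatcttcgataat
CIT2: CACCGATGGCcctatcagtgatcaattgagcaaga
YAT1: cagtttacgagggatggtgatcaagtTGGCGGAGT
YAT2: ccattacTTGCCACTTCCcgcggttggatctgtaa
Each probe is 35 bases long, and its longest shared run is 9 to 11 bases, first found in the probes of BUR2, SPB1, HHT1, TDH1 and GDH3, in the order above. No pair of the 5 probes shares a run of more than 8 bases. The probe names place them at positions 786 to 752 of YMR303C (ADH2, chromosome XIII), 1817 to 1783 of YAL054C (ACS1, chromosome I), 1306 to 1272 of YCR005C (CIT2, chromosome III), 1227 to 1193 of YAR035W (YAT1, chromosome I) and 2591 to 2557 of YER024W (YAT2, chromosome V). G and C make up 45.7% to 54.3% of each, against a median of 48.6% over the 979 probes. ADH1, the fermentative isozyme whose sequence is close to that of ADH2, had no probe among the 979 genes. The match of the ADH2 probe to ADH1 was not examined, and the runs above compare probes of this array only. The ADH2 signal is therefore uncertain in that respect.

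The arrays of the 2 groups differed in brightness. The median yeast spot stood at 4120 ± 440 scanner units on the wild type arrays against 1900 ± 114 with ACC1 overexpression (SD, n = 3 each), and the median control spot at 2031 ± 98.1 and 1078 ± 52.3. Brightness and group cannot be told apart in this design, and no background column was used. Each gene was therefore read against its own array, as a multiple of the median yeast spot and as a quantile-normalized log2 intensity. Differences are ACC1 overexpression minus wild type, and the spread between arrays stands beside each. ACC1 itself stood 2.32 higher on the log2 scale (standard error 0.07), which checks the labels.

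With limma and an adjusted p of 0.05 as the threshold, 3.47% of the 979 genes passed, and of the 5 genes here 1 did, ADH2. With cyclic loess, and with the replicate number as a block, 2 of the 5 passed, ADH2 and ACS1, both higher in ACC1 overexpression. With array weights 2 passed, ADH2 (higher) and YAT2 (lower, at −0.31). The weight was 3.60 for wild type replicate 2, against 0.44 and 0.48 for wild type replicates 1 and 3. On wild type replicate 2 both YAT2 spots were at the ceiling of the scanner. Of all 979 genes, 31 passed with cyclic loess, 121 with the block and 176 with array weights. Because the set was chosen with this comparison known, nothing is read from these counts. ADH2 and ACS1 had groups that did not overlap, both higher in ACC1 overexpression, where 24.7% of all genes had groups that did not overlap in either direction and 13.3% were higher. CIT2, YAT1 and YAT2 had overlapping groups in the quantile-normalized values. The differences of the 5 genes ran from −0.20 to 0.75 on the log2 scale, around a median of −0.01 over all genes with quartiles of −0.08 and 0.07.

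**Figure D1:**
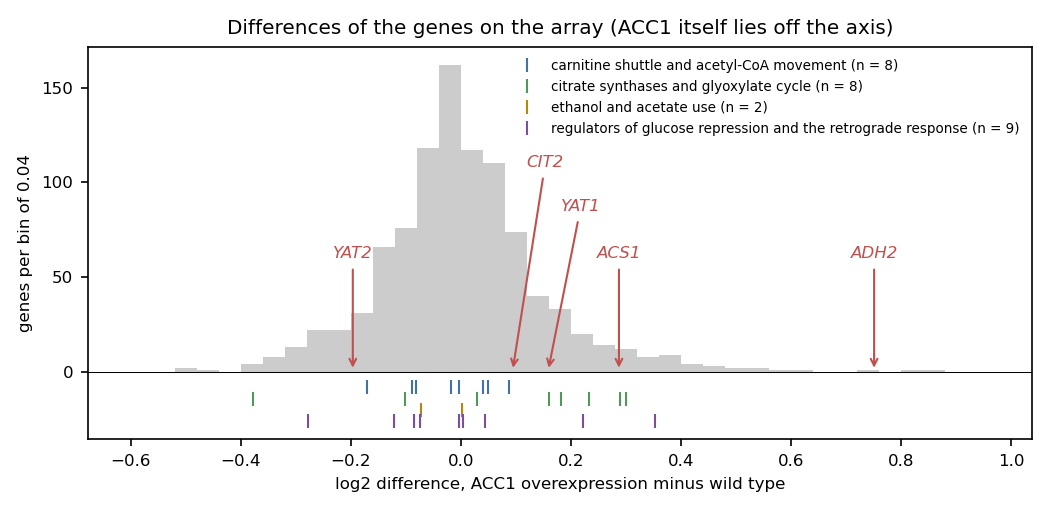
The histogram counts genes by log2 difference, ACC1 overexpression minus wild type, in quantile-normalized values, with ACC1 off the axis. Arrows mark the 5 genes, ADH2 at 0.75 far to the right, ACS1 at 0.29, YAT1 at 0.16, CIT2 at 0.09 and YAT2 at −0.20, whose sign turns under other scalings. Ticks below the axis mark the 27 related genes of 4 lists, none past the threshold.

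ADH2, the glucose-repressed alcohol dehydrogenase, was moderately bright on all arrays. Its spots read 3681.5 and 4786 on wild type replicate 1, 4788 and 4034 on replicate 2, and 5929 and 5735.5 on replicate 3. On the ACC1 overexpression arrays they read 3640 and 3630.5, 3491 and 3478.5, and 3916.5 and 3398. The deposited intensities were thus a little lower on the ACC1 overexpression arrays, while those arrays as a whole were far dimmer.

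Against the median spot of its own array, ADH2 stood at 1.15, 1.07 and 1.28 times on the wild type arrays and at 1.93, 1.94 and 1.81 times on the ACC1 overexpression arrays. All 3 arrays overexpressing ACC1 lay above all 3 wild type arrays, and the gap between the groups exceeded the range within either. Counted from the brightest of 979 probes, ADH2 held rank 395, 436 and 330 in wild type and rank 140, 133 and 174 in ACC1 overexpression. A brightness rank compares hybridization of probes and does not order transcripts by abundance, but its move between arrays needs no scaling. The array that read lowest in ACC1 overexpression and the array that read highest in wild type were both replicate 3.

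In quantile-normalized log2 units ADH2 averaged 11.65 ± 0.11 on wild type arrays and 12.40 ± 0.09 on those of ACC1 overexpression (SD, 3 arrays per group). The difference was 0.75 with a standard error of 0.08, which is a 1.68-fold higher signal and the fourth largest increase among the 979 genes (rank 4). In RNA of whole cultures, a change in every cell and a change in a share of the cells cannot be told apart. By the row numbers in the scanner tables, replicates 1, 2 and 3 of either group occupied rows 1 to 40, 63 to 102 and 125 to 164, called positions 1, 2 and 3 here. A shared position does not show that samples were paired. ADH2 differed by 0.81, 0.91 and 0.52 within positions 1, 2 and 3. It stood between 0.70 and 0.80 with any single array left out. It was 1.20 after a normexp correction on the foreground, with quantile normalization kept. It was 1.24 where the control probe median was subtracted and a common median replaced quantile normalization, against 0.71 with the common median alone. ADH2 lay above the 95th percentile of the control probes on all 6 arrays, by 1.40, 1.64 and 2.12 times in wild type and by 2.66, 2.84 and 2.57 times in ACC1 overexpression.

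**Figure D2:**
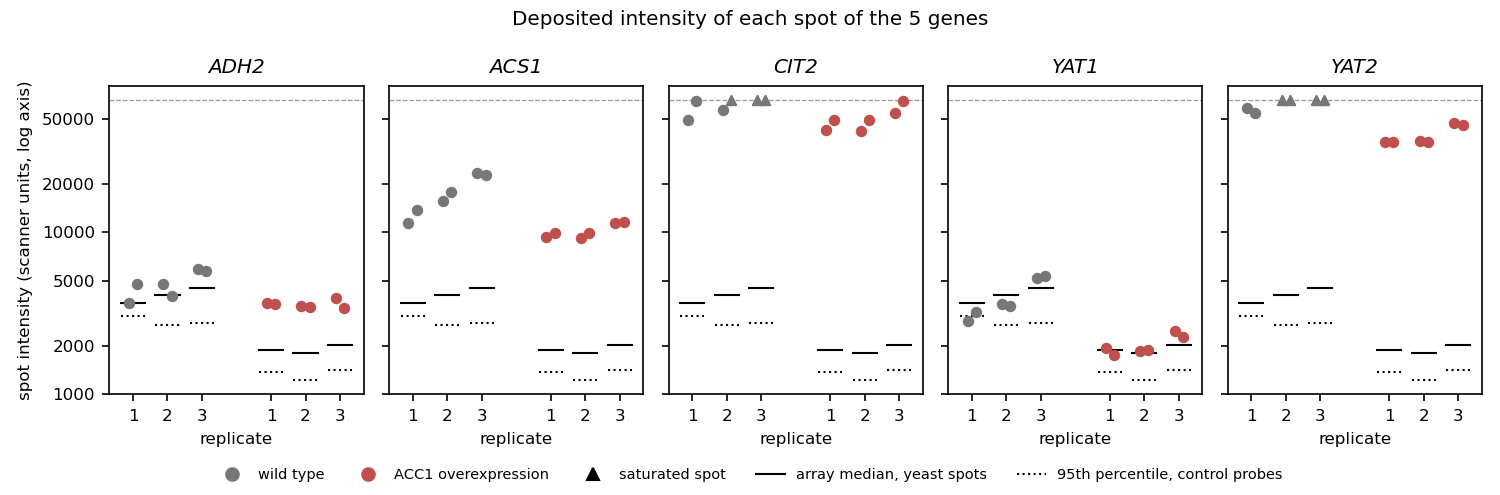
Each point is the deposited intensity of 1 spot in scanner units, on a log axis, with 2 spots per gene and array. Short solid lines give the array's median yeast spot, dotted lines the 95th percentile of its control probes, triangles the saturated spots, and the dashed line the ceiling of the scanner. ADH2 spots sat near the array median in wild type and well above it in ACC1 overexpression, and saturated spots occurred in wild type only, in CIT2 and YAT2.

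ACS1, the acetyl-CoA synthetase used on acetate and ethanol, was among the brighter probes of every array. Its 2 spots averaged 12585, 16596 and 22928.5 on wild type replicates 1, 2 and 3. On the ACC1 overexpression arrays they averaged 9645, 9581 and 11512.5. Wild type replicate 3 lay far above replicate 1 in deposited intensity, and the ACC1 overexpression arrays lay closer together.

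As multiples of the array median, ACS1 read 3.41, 4.04 and 5.02 in wild type and 5.13, 5.34 and 5.69 in ACC1 overexpression. The groups did not overlap, but wild type replicate 3 came within a small step of the lowest ACC1 overexpression array. In quantile-normalized log2 units it averaged 13.51 ± 0.21 on wild type arrays and 13.79 ± 0.04 on those of ACC1 overexpression (SD, 3 arrays per group), a difference of 0.29 with a standard error of 0.10. Within positions 1, 2 and 3 the difference was 0.54, 0.18 and 0.14, so that it was largest against wild type replicate 1. It fell to 0.17 without that array, which moved it by more than 1.5 times, and was 0.37 without wild type replicate 2.

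**Figure D3:**
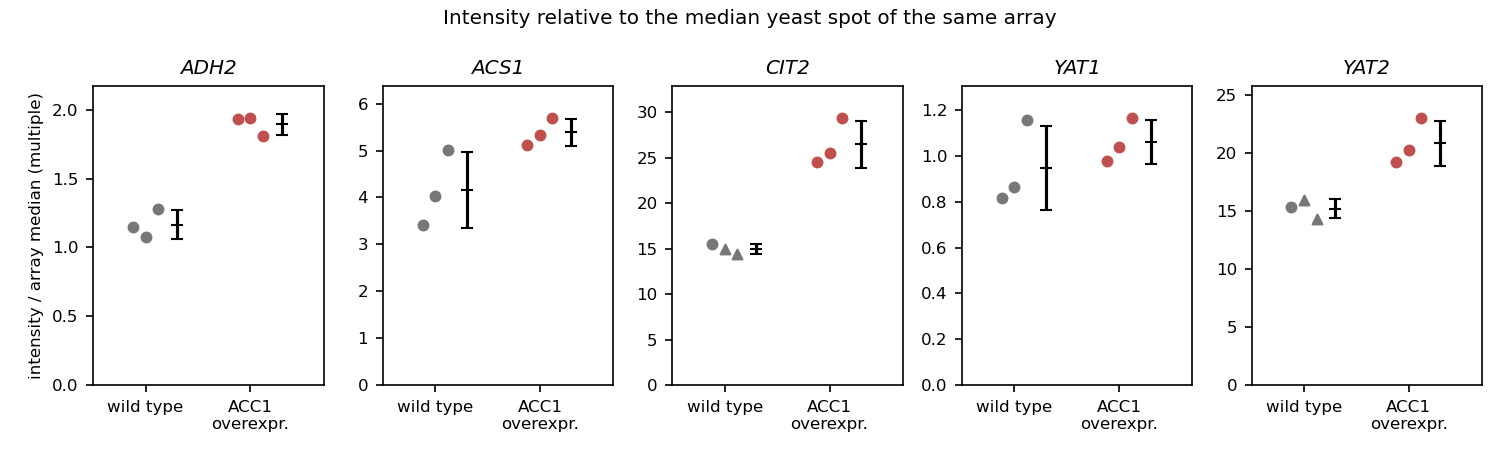
Each point is 1 array: the mean intensity of a gene's 2 spots divided by the median yeast spot of that array, on a linear axis from 0. Bars give the mean and SD of 3 arrays, and triangles mark arrays with a saturated spot of that gene, where the multiple is a lower bound. ADH2 moved from 1.17 ± 0.10 to 1.89 ± 0.07 times, ACS1 from 4.16 ± 0.81 to 5.39 ± 0.29 times, and YAT1 overlapped between groups.

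CIT2, the peroxisomal citrate synthase, and YAT2, a carnitine acetyltransferase, lay at the top of the intensity range, where the scanner reaches its ceiling. CIT2 had 1 saturated spot on wild type replicate 2 and both on replicate 3. YAT2 had both spots saturated on wild type replicates 2 and 3. Neither gene had a saturated spot on an ACC1 overexpression array, and the other 3 genes had none on any array. These 7 spots were among 21 saturated spots of 13440 in the whole series, and SPO1 held 12 of the others. The wild type signal of both genes was thus fully measured on replicate 1 only, and is a lower bound elsewhere.

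The spots of CIT2 read 49325 and 64973 on wild type replicate 1, 57270 and the ceiling on replicate 2, and the ceiling in both spots of replicate 3. On the ACC1 overexpression arrays they read 42758.5 and 49671.5, 42239.5 and 49199, and 54266.5 and 64461. In deposited units the groups overlapped, with ACC1 overexpression replicate 3 inside the wild type range. On each array the spot that read higher was the same, apart from wild type replicate 3, where both were at the ceiling.

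CIT2 held rank 1 to 3 from the brightest on every array, and quantile normalization gives such ranks nearly the same value by construction. It left CIT2 at a log2 level of 15.71 ± 0.05 for wild type against 15.80 ± 0.08 for ACC1 overexpression (SD, 3 arrays per group), a difference of 0.09 with a standard error of 0.06. Scaling by a common median made the difference 0.82, with a standard error of 0.08, and with cyclic loess it was 0.46. On the array pair of position 1, where no CIT2 spot was saturated, the quantile-normalized difference was 0.035 and the common-median difference 0.67, from 15.5 times the array median in wild type to 24.6 times in ACC1 overexpression. SPO1, at the ceiling on all arrays, shows what a fixed ceiling gives under this scaling: it differed by 1.11 with no difference in deposited intensity. The size of the CIT2 difference was therefore not settled by these arrays.

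YAT1, the carnitine acetyltransferase of the mitochondrial outer membrane, lay nearest to the control probes. Its spots averaged 3015, 3558.5 and 5289 on wild type replicates 1, 2 and 3 and 1839, 1869.5 and 2357.5 on the ACC1 overexpression arrays. On wild type replicate 1 it did not exceed the 95th percentile of the control probes, at 0.996 of it, and on the other 5 arrays it did, by 1.32 to 1.92 times.

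Against the array median YAT1 read 0.82, 0.87 and 1.16 in wild type and 0.98, 1.04 and 1.17 in ACC1 overexpression, and the groups overlapped. Its quantile-normalized log2 level was 11.37 ± 0.25 for wild type against 11.53 ± 0.13 for ACC1 overexpression (SD, 3 arrays per group). The difference of 0.16 had a standard error of 0.12 and was smaller than the spread of the wild type arrays. It was 0.23, 0.22 and 0.02 within positions 1, 2 and 3. Without wild type replicate 3, the highest wild type array, it was 0.29, without wild type replicate 1 it was 0.06, and without ACC1 overexpression replicate 3 it was 0.09.

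YAT2, which encodes another carnitine acetyltransferase, had spots at 58877 and 54576 on wild type replicate 1 and at the ceiling on both of the other wild type arrays. On the ACC1 overexpression arrays its spots read 36333 and 36102, 36865 and 35926.5, and 47371 and 45840. In deposited intensity the wild type spots lay above those of ACC1 overexpression throughout.

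The sign of the YAT2 difference depended on the scaling. Quantile normalization put it at −0.20 with a standard error of 0.08, from a log2 level of 15.77 ± 0.16 for wild type to 15.57 ± 0.06 for ACC1 overexpression (SD, 3 arrays per group). Cyclic loess put it at 0.11 and a common median at 0.45. With saturated spots treated as missing it was −0.037, and wild type then rested on 1 array. On the pair of position 1, which had no saturated YAT2 spot, the normalized difference was −0.11 and the common-median difference 0.32, from 15.4 to 19.3 times the array median. No direction is therefore given for YAT2. With a common median 7.56% of all genes passed the threshold and ADH2, CIT2 and YAT2 were among them, 3 of the 5 genes, though saturation and the scaling enter the last 2, and nothing is read from that count.

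**Figure D4:**
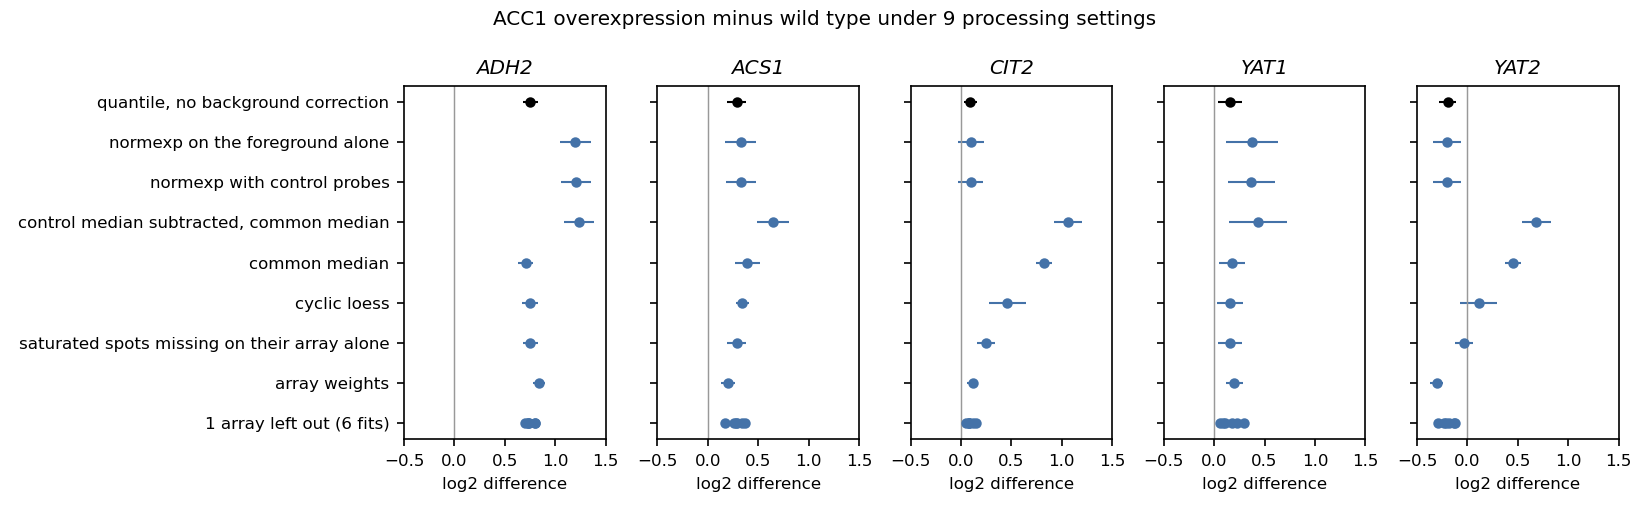
Points give the log2 difference of each gene under 9 processing settings, with the standard error of the fit as bars and 6 points in the bottom row for the fits with 1 array left out. ADH2 stood above 0.7 throughout, ACS1 and YAT1 stayed above 0, CIT2 ran from 0.05 to 1.06, and YAT2 ran from −0.31 to 0.68 across 0.

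The 2 spots of a gene on an array differed by a median of 1.07-fold over the 30 pairs of gene and array, and by at most 1.32-fold, which was CIT2 on wild type replicate 1. ADH2 on wild type replicate 1 came next, at 1.30-fold. The pixel SD within unsaturated spots had a median of 17.2% of the spot's intensity. Spots of 1 array are not replicates of a condition and entered the main fit and the multiples of the array median as their mean.

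The profiles over 6 arrays that lay closest to ADH2, ACC1 aside, were those of FRM2 (Pearson r of 0.98), PMT2, a protein O-mannosyltransferase (0.98), OYE2, an NADPH oxidoreductase (0.97), FAS2, of cytosolic fatty acid synthase (0.97), and RIP1, the Rieske protein of the respiratory chain (0.96). FRM2 and OYE2 were above the control probes on 0 of 3 wild type arrays, and OYE2 on only 1 of 3 ACC1 overexpression arrays, so their r rests partly on dim signal. With the group means removed, r to ADH2 was 0.98 for FAS2, 0.92 for PMT2, 0.82 for OYE2, 0.31 for RIP1 and 0.17 for FRM2. The last pair shared the step between groups with ADH2 rather than its variation within them. Such values describe 6 arrays that fall into 2 groups, and 11 genes had an r to ADH2 above 0.95.

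ACS1 was most like CAR1, the arginase (0.98), CTA1, the peroxisomal catalase (0.98), and GLC3, the glycogen branching enzyme (0.97). YAT1 was most like SOD2, the mitochondrial superoxide dismutase (0.98), PEX11, a peroxisomal membrane protein (0.97), and VMA3 of the vacuolar proton pump (0.97). For CIT2 the first 3 were CAF20, PIS1 and ERG28 (0.96, 0.96 and 0.95), and for YAT2 they were IVY1, PDR16 and HNT1 (0.95, 0.94 and 0.93), over values of CIT2 and YAT2 that quantile normalization held near the top of the scale. PIS1 was above the control probes on 1 wild type array and 2 ACC1 overexpression arrays. Among the 3 genes with no saturated spot, r over the 6 arrays was 0.77 for ADH2 with ACS1, 0.61 for ACS1 with YAT1 and 0.49 for ADH2 with YAT1.

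The rest of the route was read from 4 lists holding 72 genes, of which 27 were measured. By limma with Benjamini-Hochberg adjustment over all 979 genes, 0 of the 27 passed in either direction. At an unadjusted p of 0.05, 8 did, 6 higher and 2 lower, against 20.1% of all genes. Their median difference was 0.00, and 14 of 27 were above 0. Neither of the 2 measured genes of ethanol and acetate use passed: ACS2, the acetyl-CoA synthetase that is expressed on glucose, stood at 0.00 (standard error 0.08), and the aldehyde dehydrogenase gene ALD2 at −0.07 (standard error 0.05).

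Among 8 other genes of citrate synthesis, the glyoxylate cycle and gluconeogenesis, 0 passed, with a list median of 0.17. The other citrate synthase genes stood at similar values to each other, CIT3 at 0.30 (adjusted p = 0.0561 in limma) and CIT1 at 0.29 (adjusted p = 0.127 in limma), both with groups that did not overlap. IDP3, the peroxisomal isocitrate dehydrogenase, stood at −0.38, with a wild type SD of 0.46 (adjusted p = 0.299 in limma). CIT3 passed with a common median (0.33), and DAL7 passed there too, although DAL7 was above the control probes on no array. CIT3 was above them on 2 wild type arrays and 3 of ACC1 overexpression.

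Among 8 genes of the carnitine shuttle and of acyl import and oxidation in peroxisomes, 0 passed, with a list median of −0.01. FOX2, of beta-oxidation, stood at −0.17 (adjusted p = 0.155 in limma), the choline permease gene HNM1 at −0.09 and CRC1, the mitochondrial carrier of acylcarnitines, at 0.09. HNM1 was above the control probes on 1 array of each group, and CRC1 on 2 wild type arrays and 3 of ACC1 overexpression. CAT2, the major carnitine acetyltransferase, picked after its value was seen, stood at −0.08 with a standard error of 0.07.

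Among 9 regulators and markers of glucose repression and the retrograde response, 0 passed, with a list median of 0.00. DLD3, a D-lactate dehydrogenase gene known like CIT2 as a retrograde target, stood at 0.35 (adjusted p = 0.0604 in limma). HAP4, the activating subunit of the respiratory regulator Hap2/3/4/5, stood at 0.22 (adjusted p = 0.141 in limma) and HAP3 at −0.28 (adjusted p = 0.241 in limma). ADR1 and RTG2, both picked after their values were seen, stood at −0.07 and 0.04. ADR1 was above the control probes on 2 arrays of each group, and RTG2 on 2 wild type arrays and 3 of ACC1 overexpression.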

How the data were processed

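The deposited scanner tables give, per the file headers, a median foreground intensity and a pixel standard deviation for each of 2240 spots per array, 26 control probes included. The scanner software and any background subtraction are not given in the sources read. The log2 intensities of the yeast spots were quantile normalized, and each probe's spots were averaged. All 979 systematic names matched the R64 gene table, used for names and chromosomes only. Groups were compared with limma 3.58.1 (lmFit, eBayes) in R 4.3.3. Tests were two-sided, p-values were adjusted by Benjamini-Hochberg across the 979 genes, and 0.05 was the threshold. The fit was tested on simulated data. For the 5 genes the fit gave differences and standard errors, with no p reported. Alternatives covered background correction, normalization, saturated spots, spot summary, a filter on dim genes, variance moderation, a replicate block, array weights and leaving out each array.

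The genes, the 4 lists and the rule for named genes were chosen with earlier results of these data known. The rule named the 5 genes, ACC1, every list gene past the threshold and otherwise the 3 largest differences per list, and the 5 profiles most like ADH2 (3 for each other gene). A series-level value table was not used, because its rows carry no gene names. The number of arrays limits the precision.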

Additional observations from a re-analysis of the deposited data

How the results depend on the processing

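The settings with no normalization, with saturated spots missing on their own array and with the control median subtracted were chosen after the data were seen. With no normalization the differences were −0.41 (ADH2), −0.72 (ACS1), −0.29 (CIT2), −0.94 (YAT1) and −0.66 (YAT2), where the median of all genes was −1.06. After normexp on the foreground ADH2 stood at 1.20 and YAT1 at 0.37, and after normexp with control probes at 1.21 and 0.37. After subtraction of the control median and scaling to a common median the values were 1.24 (ADH2), 0.65 (ACS1), 1.06 (CIT2), 0.43 (YAT1) and 0.68 (YAT2). A common median alone gave 0.82 for CIT2 and 0.45 for YAT2, cyclic loess 0.46 and 0.11, and saturated spots as missing 0.25 and −0.037. With saturated spots missing, wild type rested on 2 arrays for CIT2 and on 1 for YAT2. CIT2 on wild type replicate 2 then rested on 1 spot, at 57270, the spot that read lower on the other arrays without saturation. Leaving saturated spots out on all arrays gave no value for CIT2 or YAT2. With 1 array left out, ADH2 ran from 0.70 to 0.80, ACS1 from 0.17 to 0.37, CIT2 from 0.05 to 0.15, YAT1 from 0.06 to 0.29, YAT2 from −0.29 to −0.12 and ACC1 from 2.25 to 2.36.

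The count of 34 genes past the threshold became 74 with a common median, 176 with array weights, 5 at an adjusted p of 0.01 and 1 with at least a 2-fold change, and ran from 4 to 123 with 1 array left out. It was 5 without wild type replicate 2, 123 without wild type replicate 3, and 5, 4 and 7 without ACC1 overexpression replicates 1, 2 and 3. Of the 27 list genes, 0 at first, 1 passed with trended, robust variances and 1 after normexp with control probes (CIT3 in both), 2 with a common median and 7 with array weights, and 0 to 5 with 1 array left out. With the replicate block 121 genes passed, 6 of them list genes. For arrays numbered 1, 2 and 3, deviations from the group means correlated between the groups with r of 0.47, −0.02 and 0.39. Arrays of the same number thus shared deviations at numbers 1 and 3 and not at 2. The main fit took no account of this, because the sources read do not state that samples were paired. Whether position or pairing lay behind it was not tested. The cause of these shifts was not tested.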

Other observations

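The probe names count positions downward. Read as the reverse complement in the frame that those positions give, 0 of 979 yeast probes held a stop codon, while 441 (45.0%) did when read as listed. The listed probe sequences, those of ADH2, ACS1, CIT2, YAT1 and YAT2 included, are thus complementary to the coding strand. The labelling protocol in the labels describes the labelled RNA as antisense as well. The strand of the sequences as printed on the array was not tested.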
